A study of Mus musculus with 4 samples.

Results

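The miR-10, miR-99, miR-100 and miR-125 family was described in mouse sperm small RNA. Its members are the mature strands of the hairpins mmu-mir-10a, mmu-mir-10b, mmu-mir-99a, mmu-mir-99b, mmu-mir-100, mmu-mir-125a and mmu-mir-125b, written below as miR-10a and so on. A distinct read sequence of 18 nt or longer counted as a member when its deposited annotation named only hairpins of the family, with copy numbers such as the last digit of mir-125b-2 dropped. This gave 110 of 2783 miRNA sequences and 7 of 389 miRNA hairpin labels. No sequence of this length carried the names of more than 1 member.

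The tested libraries came from male C57BL mice labelled Mdd, which met varied stressors in random order each day, among them an empty, tilted or damp cage, white noise, strobe light, restraint, isolation and a disturbed light cycle. The controls were left undisturbed apart from feeding and cage cleaning, and each group had 2 libraries. The study asked how short non-coding RNA of sperm differs in this depressive-like model. The sources used here give neither the age of the mice nor whether animals were pooled. The protocol names sperm as the source of RNA, whereas the tissue and cell type fields name testis and testicular cells. Since the labels do not tie each replicate to its own animal, a p-value here reflects the spread of these libraries alone, and that spread could be technical.

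As background, a miRNA is cut from a hairpin precursor whose arms give a 5p and a 3p strand, and one of them is usually kept by an Argonaute protein. Bases 2 to 8 of the mature strand, the seed, guide it to messenger RNAs, so a shift of the 5′ end changes the targets while a shift of the 3′ end leaves the seed as it is. The genes of miR-10a and miR-10b lie in Hox clusters, and the other members stand in clusters with let-7 genes. miR-99 and miR-100 are known regulators of mTOR and IGF1R, miR-10 of Hox genes, and miR-125, the relative of the worm developmental timing miRNA lin-4, of Lin28. Small RNA of sperm is studied as a carrier of paternal effects.

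The 5p strands as annotated by RefSeq on GRCm38.p6 are shown with their seeds in capitals, because the seed sorts the family into 3 groups.
miR-99a-5p: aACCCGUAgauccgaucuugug
miR-100-5p: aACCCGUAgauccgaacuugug
miR-99b-5p: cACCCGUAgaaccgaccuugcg
miR-10a-5p: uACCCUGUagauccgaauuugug
miR-10b-5p: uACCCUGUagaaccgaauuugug
miR-125a-5p: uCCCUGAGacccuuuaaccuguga
miR-125b-5p: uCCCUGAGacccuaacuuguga
miR-99a, miR-100 and miR-99b share the seed ACCCGUA. miR-10a and miR-10b share ACCCUGU, and miR-125a and miR-125b share CCCUGAG. Counted from 1 at the 5′ end, miR-100 and miR-99a differ only by A16U, and miR-10a and miR-10b only by U12A. With differences this small, a misread base could move reads between members. At position 16 on the rest of the miR-99a sequence, C was read 0 and 0 times in the Mdd libraries and 0 and 1 times in the controls, and G had the same counts. The base A, which marks miR-100, was read 440 and 253 times there in Mdd and 121 and 868 times in control. At position 12 on the miR-10a sequence, C and G were read 0 times in all 4 libraries.

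On GRCm38, in RefSeq and GENCODE coordinates, the plus strand carries every hairpin of the family. Mir10b (chr2:74726070-74726137) lies in introns of Hoxd3 and Hoxd4, and Mir10a (chr11:96317165-96317274) lies 993 nt from Hoxb4, outside any other gene annotated by GENCODE. Mir99a (chr16:77598936-77599000) and Mir125b-2 (chr16:77646273-77646343) lie in an intron of the host gene Mir99ahg, 47272 nt apart, with Mirlet7c-1 656 nt from Mir99a. Mir100 (chr9:41531425-41531504) and Mir125b-1 (chr9:41581926-41582002) lie in introns of the non-coding genes 3110039I08Rik and Gm49317, 50421 nt apart, with Mirlet7a-2 between them. Mir99b (chr17:17830188-17830257) and Mir125a (chr17:17830812-17830879) lie 554 nt apart in Spaca6, a sperm acrosome gene needed for fusion with the egg, with Mirlet7e between them. Mir99b is intronic there, and Mir125a overlaps an exon of 1 or more Spaca6 transcripts. The mature 5p strand of miR-125b is the same from both copies, so reads that end within it cannot be split between chromosomes 9 and 16. The few reads that ran past its 3′ end differed in their next bases and were not assigned to a copy.

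The libraries held 24031479 and 24112532 reads in Mdd and 12845403 and 22948488 in control. Of these, 198947 and 94011 in Mdd and 71902 and 263748 in control were miRNA reads of 18 nt or longer. Reads of any class of 18 nt or longer numbered 23748630 and 23806805 in Mdd and 9706895 and 16763277 in control. Left out were 4584 and 2037 miRNA reads of 15 to 17 nt in Mdd and 9021 and 23116 in control. The cut at 18 nt thus removed a larger part of the control reads. Reads were not taken as independent molecules. Past a low point at 11 and 4 copies in Mdd and 3 and 3 in control, the number of sequences per copy number peaked again. This later peak, called the usual copies and taken as 1 unit, stood at 38 and 8 in Mdd and 7 and 10 in control. Sequences with fewer copies were left out of it. The count of 9101 family reads in Mdd replicate 1 was therefore equal to only 239.5 such units, against 1997 units for 19972 reads in control replicate 2. Levels are given as CPM, a label's reads scaled by all miRNA reads of its library. The miRNAs mir-1a, mir-133a, mir-133b and mir-206 of striated muscle, which sperm should lack, summed to 1488 and 989 CPM in Mdd and 3880 and 65737 CPM in control. All 4 had reads in the controls, and mir-133b had none in Mdd replicate 1. The blood list, led by mir-451a, summed to 57865 and 48005 CPM in Mdd and 46188 and 6453 CPM in control. All 5 of its miRNAs had reads in both controls, mir-144 had none in either Mdd library and mir-150 none in Mdd replicate 2. The germ cell list (mir-34b, mir-34c and mir-449a had reads, mir-449b and mir-449c none) summed to 257239 and 211465 CPM in Mdd and 223610 and 103129 CPM in control. The stromal, smooth muscle and endothelial list reached 45017 and 59982 CPM in Mdd and 47773 and 79326 CPM in control. All 5 of its miRNAs had reads in every library, as had all 5 of the epithelial list, which summed to 7354 and 17115 CPM in Mdd and 8247 and 17293 CPM in control. The 2 neural miRNAs, mir-124 and mir-9, summed to 9198 and 1851 CPM in Mdd and 2545 and 1247 CPM in control. Control replicate 2 thus stood apart in the sums of its muscle, blood and germ cell lists. Its low blood and germ cell sums came from mir-451a (5608 CPM) and mir-34b (47056 CPM). By contrast, mir-150, mir-223, mir-144 and mir-449a had their highest CPM in that library, and mir-142a and mir-34c did not stand apart there. Values that rest on control replicate 2 are given with and without it.

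The family gave several percent of the miRNA reads in each library, and no member passed the test between Mdd and control. Family reads numbered 9101 and 3518 in Mdd and 3266 and 19972 in control. They made up 4.57% and 3.74% of miRNA reads in Mdd and 4.54% and 7.57% in control. Control replicate 2 had the highest share and Mdd replicate 2 the lowest. With the usual copies as 1 unit, 95% Wilson intervals, which cover counting error only, were 4.05% to 5.19% and 3.42% to 4.10% in Mdd and 4.16% to 4.97% and 7.26% to 7.90% in control. The means were 4.16% ± 0.589 in Mdd and 6.06% ± 2.14 in control (SD, n = 2 each; exact two-sided permutation p = 0.667, where 2 against 2 cannot give a p below 0.333). Without control replicate 2 the difference of means, Mdd minus control, was -0.384 percentage points in place of -1.90. In bulk RNA, fewer cells of a type and less RNA per cell cannot be told apart.

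Over the 4 libraries miR-99a was the most abundant member by mean level, but this order rests on control replicate 2. In the Mdd mean it had 11901 CPM against 13310 CPM for miR-10a. In control replicate 1 it was also below miR-10a. By library, miR-99a had 12802 and 10999 CPM in Mdd and 10626 and 36717 CPM in control. Only control replicate 2 was high, and the Mdd values lay between those of the controls. The log2 fold change was -1.01 (SE 0.81; adjusted p = 0.952, edgeR). Without control replicate 2 it was 0.31, and without control replicate 1 it was -1.72. The muscle miRNAs were also highest in control replicate 2, and their part in the level of miR-99a was not tested.

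miR-10a followed with 17366 and 9254 CPM in Mdd and 12086 and 14404 CPM in control. Its highest and lowest values were both in Mdd, and the log2 fold change was 0.06 (SE 0.69; adjusted p = 0.992, edgeR). miR-10b, which differs from it by 1 base and comes from the Hoxd cluster, had 3835 and 1776 CPM in Mdd and 2754 and 4804 CPM in control. The ranges overlapped for miR-10b as well (log2 fold change -0.40, SE 0.74; adjusted p = 0.992, edgeR). miR-10a exceeded miR-10b in every library, 4.53- and 5.21-fold in Mdd and 4.39- and 2.998-fold in control by reads.

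miR-125b had the lowest unadjusted p of the family. Its levels were 2905 and 4053 CPM in Mdd and 8303 and 8842 CPM in control, so both Mdd values lay under both control values. The means were 3479 ± 811 CPM in Mdd and 8572 ± 381 CPM in control (SD, n = 2 each), with a log2 fold change of -1.27 (SE 0.64; unadjusted p = 0.0751, adjusted p = 0.806, edgeR). It did not pass the test. Over the fits that each left out 1 library, the log2 fold change lay between -1.46 and -1.12. Its seed relative miR-125a had 2317 and 2138 CPM in Mdd and 3352 and 2328 CPM in control. The groups did not overlap, but Mdd replicate 1 and control replicate 2 were nearly the same (log2 fold change -0.28, SE 0.69; adjusted p = 0.992, edgeR).

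miR-99b had 3870 and 6489 CPM in Mdd and 6620 and 5255 CPM in control, with overlapping ranges (log2 fold change -0.16, SE 0.64; adjusted p = 0.992, edgeR). miR-100 had 2649 and 2712 CPM in Mdd and 1683 and 3374 CPM in control. Both Mdd values lay between the control values (log2 fold change 0.08, SE 0.73; adjusted p = 0.992, edgeR).

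**Figure D1:**
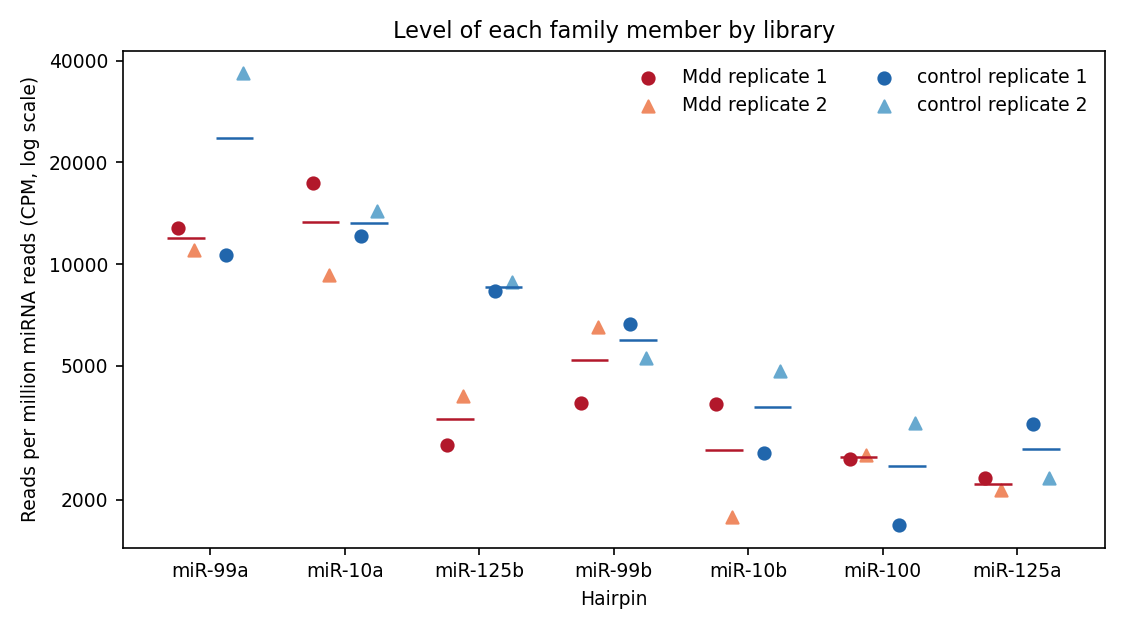
Level of the 7 members in CPM of miRNA reads (log axis), with 1 point per library, group means as horizontal lines and Mdd left of control within each member. miR-99a in control replicate 2 stands above all other points at 36717 CPM, and the Mdd and control points of miR-125b and miR-125a do not overlap.

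By mean CPM over the 4 libraries, which compares mature strands of nearly equal length, the members ranked 14 (miR-99a), 18 (miR-10a), 40 (miR-125b), 43 (miR-99b), 57 (miR-10b), 65 (miR-100) and 66 (miR-125a) among all miRNA labels. miR-10a was above miR-125b in 4 of 4 libraries, and miR-99b above miR-10b in 4 of 4. miR-99a exceeded miR-10a in 2 of 4 libraries, and miR-125b exceeded miR-99b in 2 of 4. Within single libraries miR-99a ranked 15 and 21 in Mdd and 24 and 8 in control, and miR-10a 12 and 23 in Mdd and 19 and 18 in control. miR-10b was above miR-100 in 3 of 4 libraries, and miR-100 above miR-125a in 3 of 4. Among neighbours in this order, only the ranges of miR-10a and miR-125b over the 4 libraries did not overlap.

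Across all 236 hairpin labels tested with edgeR, 0.0% passed an adjusted p of 0.05, and 11 had an unadjusted p under 0.05. DESeq2 called 7 labels (2.97%), 2 higher in Mdd (0.847%) and 5 lower (2.12%), none of them a member. Among the 7 members, 2 log2 fold changes were positive and 5 negative, with a median of -0.28 against -0.04 over all labels. The CPM of 2 of 7 members did not overlap between groups, both lower in Mdd. Over all labels tested, 38.1% did not overlap and 21.6% were lower in Mdd without overlap. With 7 members, nothing particular to the family is read from these counts.

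The make-up of the family, which does not depend on scaling between libraries, was led by miR-99a and miR-10a in all 4 libraries. miR-99a made up 28.0% and 29.4% of family reads in Mdd and 23.4% and 48.5% in control. miR-10a made up 38.0% and 24.7% in Mdd and 26.6% and 19.0% in control. The largest member was thus miR-10a in Mdd replicate 1 and control replicate 1, and miR-99a in the other two.

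miR-125b made up 6.35% and 10.8% of family reads in Mdd and 18.3% and 11.7% in control. miR-100 made up 5.79% and 7.25% in Mdd and 3.70% and 4.46% in control. These were the only members whose shares did not overlap between groups, miR-125b lower and miR-100 higher in Mdd (exact permutation p = 0.333 each, the smallest the design allows; adjusted p = 1 over the 7 members). Shares within other miRNA families were not computed for comparison. miR-99b took 8.46% and 17.3% of the family in Mdd and 14.6% and 6.94% in control. miR-10b took 8.38% and 4.75% in Mdd and 6.06% and 6.34% in control, and miR-125a 5.07% and 5.71% in Mdd and 7.38% and 3.07% in control. For these 3 the ranges overlapped.

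**Figure D2:**
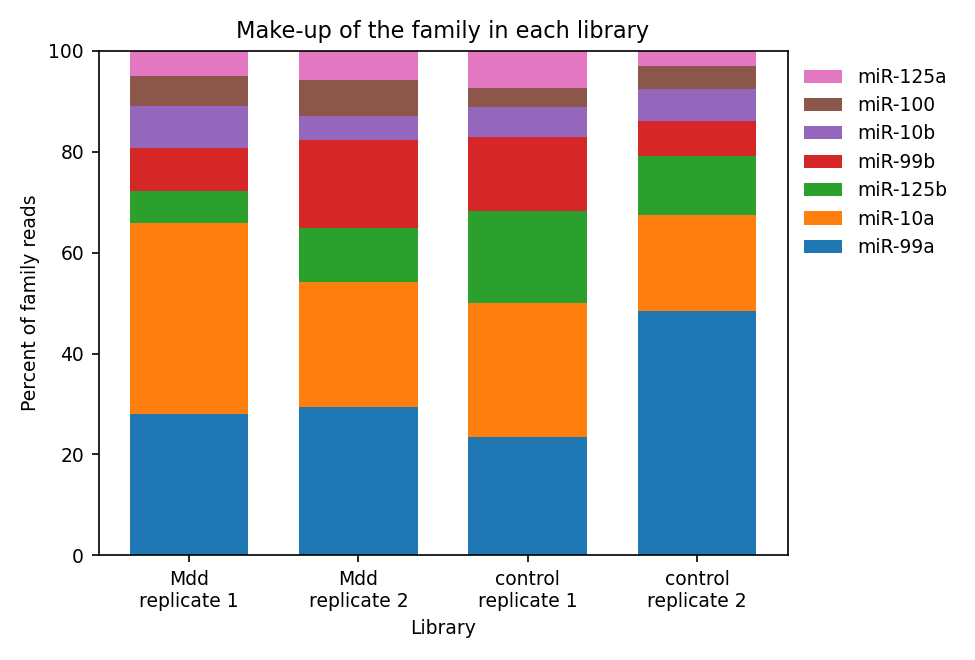
Share of each member in the family's reads (percent, stacked to 100), 1 bar per library with the Mdd libraries left of the controls. miR-99a and miR-10a are the largest segments of each bar, and miR-99a reaches 48.5% in control replicate 2.

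Nearly all reads came from the 5p arm. The 3p arm gave 5 of 9101 and 5 of 3518 family reads in Mdd (0.0549% and 0.142%) and 33 of 3266 and 147 of 19972 in control (1.01% and 0.736%). Both Mdd shares lay under both control shares (exact permutation p = 0.333, the smallest the design allows). With the usual copies as 1 unit the Wilson intervals overlapped, at 0% to 1.58% and 0.0401% to 1.28% in Mdd and 0.458% to 2.48% and 0.456% to 1.24% in control.

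miR-125b had the most 3p reads (105), followed by miR-10a (50), and the other 5 members had 1 to 13 each. The 3p strands of miR-125b are shown because, unlike the mature 5p strand, they tell its copies apart. RefSeq gives each strand in full, and the line under it is the sequence with most reads from that strand.
miR-125b-2-3p, RefSeq: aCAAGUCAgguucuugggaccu
miR-125b-2-3p, reads: aCAAGTCAggttcttggg
miR-125b-1-3p, RefSeq: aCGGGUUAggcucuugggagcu
miR-125b-1-3p, reads: aCGGGTTAggctcttggga
Reads of miR-125b-2-3p, from chromosome 16, numbered 1 and 0 in Mdd and 0 and 65 in control. Reads of miR-125b-1-3p, from chromosome 9, numbered 0 and 0 in Mdd and 11 and 28 in control. Control replicate 2 held 3p reads of both copies and control replicate 1 only of the copy on chromosome 9.

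The reads of every member started mostly where RefSeq places the 5′ end, and miR-10a had the highest share of later starts in every library. The RefSeq start was used by 82.8% and 87.4% of family reads in Mdd and 89.1% and 88.5% in control. Both Mdd values were lower than both control values (exact permutation p = 0.333, the smallest the design allows). Counting each distinct sequence once turned the difference of means to 1.90 percentage points, against -3.74 with reads. The 2 sequences with most reads of each miR-10 member were the following, seeds by position in capitals, with miR-10a shown first.
miR-10a, RefSeq start: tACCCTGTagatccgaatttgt
miR-10a, 1 base later: aCCCTGTAgatccgaatttgt
miR-10b, longer: tACCCTGTagaaccgaatttgt
miR-10b, shorter: tACCCTGTagaaccgaatttg
The start 1 base downstream was used by 31.7% and 40.2% of miR-10a 5p reads in Mdd and 37.0% and 35.2% in control. It was thus common in every library and the groups overlapped. In miR-10b it was used by 21.0% and 7.19% of 5p reads in Mdd and 6.06% and 13.3% in control, also with overlap.

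In miR-125b the later start was used by 18.9% and 5.25% of 5p reads in Mdd and 2.56% and 1.30% in control. This was the only 1 of 7 members whose later start did not overlap between groups (exact permutation p = 0.333, the smallest the design allows). The share over other miRNAs was not computed. The Mdd value of 18.9% comes from the library with 38 copies as the usual unit and rests on 109 reads of cCCTGAGAccctaacttgtga. That sequence had 20 reads in the other Mdd library and 0 and 29 in the controls. miR-100 used the later start in 16.2% and 0.784% of 5p reads in Mdd and 0% and 4.18% in control. Mdd replicate 1 alone was high. miR-99a and miR-99b used it in at most 2.62% of 5p reads in any library, and all 5p reads of miR-125a began at the RefSeq start.

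By seed, ACCCGUA of the miR-99 and miR-100 group was on 40.7% and 52.4% of family 5p reads in Mdd and 42.0% and 57.1% in control. ACCCUGU of miR-10 was on 31.9% and 19.0% in Mdd and 22.1% and 17.4% in control. CCCUGAG of miR-125 was on 10.2% and 16.02% in Mdd and 25.1% and 14.1% in control. The ranges of these 3 seeds overlapped between groups. The shifted miR-10 seed CCCUGUA was on 13.8% and 10.2% in Mdd and 10.1% and 7.55% in control, without overlap, although Mdd replicate 2 and control replicate 1 were nearly the same. It differs from the miR-125 seed in its last 2 bases.

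**Figure D3:**
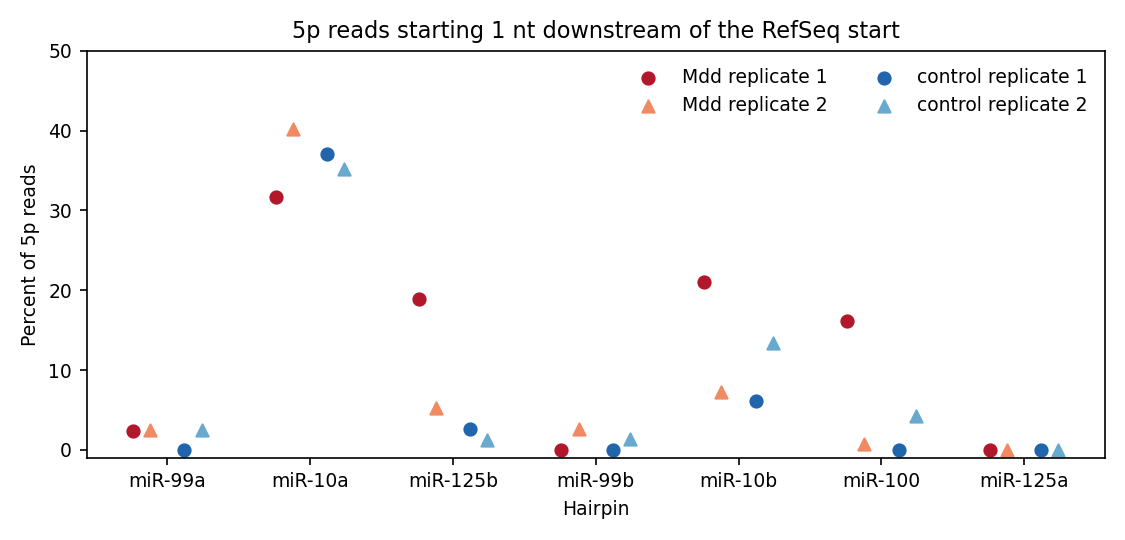
Percent of each member's 5p reads that began 1 base downstream of the RefSeq 5′ start, 1 point per library, with Mdd left of control. miR-10a lies between 31.7% and 40.2% in all 4 libraries, and miR-125a at 0.

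The 3′ ends varied more than the 5′ starts. RefSeq 3′ ends were used by 22.6% and 31.6% of family reads in Mdd and 24.3% and 24.3% in control, with overlap. Tailed reads, which carry added bases that do not match the genome and are described below, are not in these shares or those that follow for 3′ ends. The reads averaged 21.4 and 21.3 nt in Mdd and 21.3 and 21.1 nt in control. The 2 sequences with most reads of the other members show where the strands ended.
miR-99a, 1 short: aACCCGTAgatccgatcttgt
miR-99a, RefSeq end: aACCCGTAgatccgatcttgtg
miR-100, RefSeq end: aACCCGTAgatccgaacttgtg
miR-100, 1 short: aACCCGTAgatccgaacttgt
miR-99b, RefSeq end: cACCCGTAgaaccgaccttgcg
miR-99b, 1 short: cACCCGTAgaaccgaccttgc
miR-125a, 2 short: tCCCTGAGaccctttaacctgt
miR-125a, 1 short: tCCCTGAGaccctttaacctgtg
miR-125b, 2 short: tCCCTGAGaccctaacttgt
miR-125b, RefSeq end: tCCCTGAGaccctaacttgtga

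miR-100 and miR-99a differ by 1 base and ended at different places. The RefSeq end was used by 64.6% and 78.0% of miR-100 5p reads in Mdd and 52.9% and 44.5% in control, so both Mdd values were higher. The end 1 base short was used by 5.71% and 16.9% of miR-100 5p reads in Mdd and 44.6% and 45.3% in control. miR-99a used the RefSeq end in 11.5% and 15.3% of 5p reads in Mdd and 20.2% and 21.4% in control, so here both Mdd values were lower. It ended 1 base short in 64.5% and 60.5% in Mdd and 49.4% and 55.7% in control. The groups thus did not overlap for either member (exact permutation p = 0.333 for each, the smallest the design allows). Among untailed reads, Mdd had more of the longer form for miR-100 and more of the shorter form for miR-99a. In control replicate 1 the full miR-100 strand had 64 reads without a tail, and 64 more with 1 added U and 34 with 1 added A. The lack of overlap of miR-100 at the RefSeq end is thus stated for untailed reads only. Among all members, 3 of 7 did not overlap at the RefSeq end and 4 of 7 at 1 base short. These included miR-10b at both ends and miR-125a at 1 base short. For miR-125a in Mdd replicate 1, 2 untailed reads ended 1 base short, and 57 tailed reads ended there before 1 added U. Its lack of overlap is thus also stated for untailed reads only. The share over other miRNAs was not computed.

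miR-125a ended 2 bases short in 98.0% and 86.6% of 5p reads in Mdd and 64.7% and 58.1% in control. miR-125b ended there in 49.4% and 37.8% in Mdd and 37.7% and 26.2% in control, with Mdd replicate 2 and control replicate 1 nearly the same. Among untailed reads, these were the 2 of 7 members whose share at this end did not overlap between groups (exact permutation p = 0.333 for each, the smallest the design allows). The share over other miRNAs was not computed. miR-10a ended mostly 1 base short, and miR-10b at several places. miR-10a ended 1 base short in 68.0% and 55.4% of 5p reads in Mdd and 67.7% and 53.4% in control, where the groups overlapped. miR-10b ended there in 25.7% and 41.3% in Mdd and 49.0% and 54.2% in control, and used the RefSeq end in 37.2% and 16.2% in Mdd and 0.505% and 11.5% in control. miR-99b used the RefSeq end in 60.1% and 71.3% in Mdd and 53.9% and 62.5% in control.

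**Figure D4:**
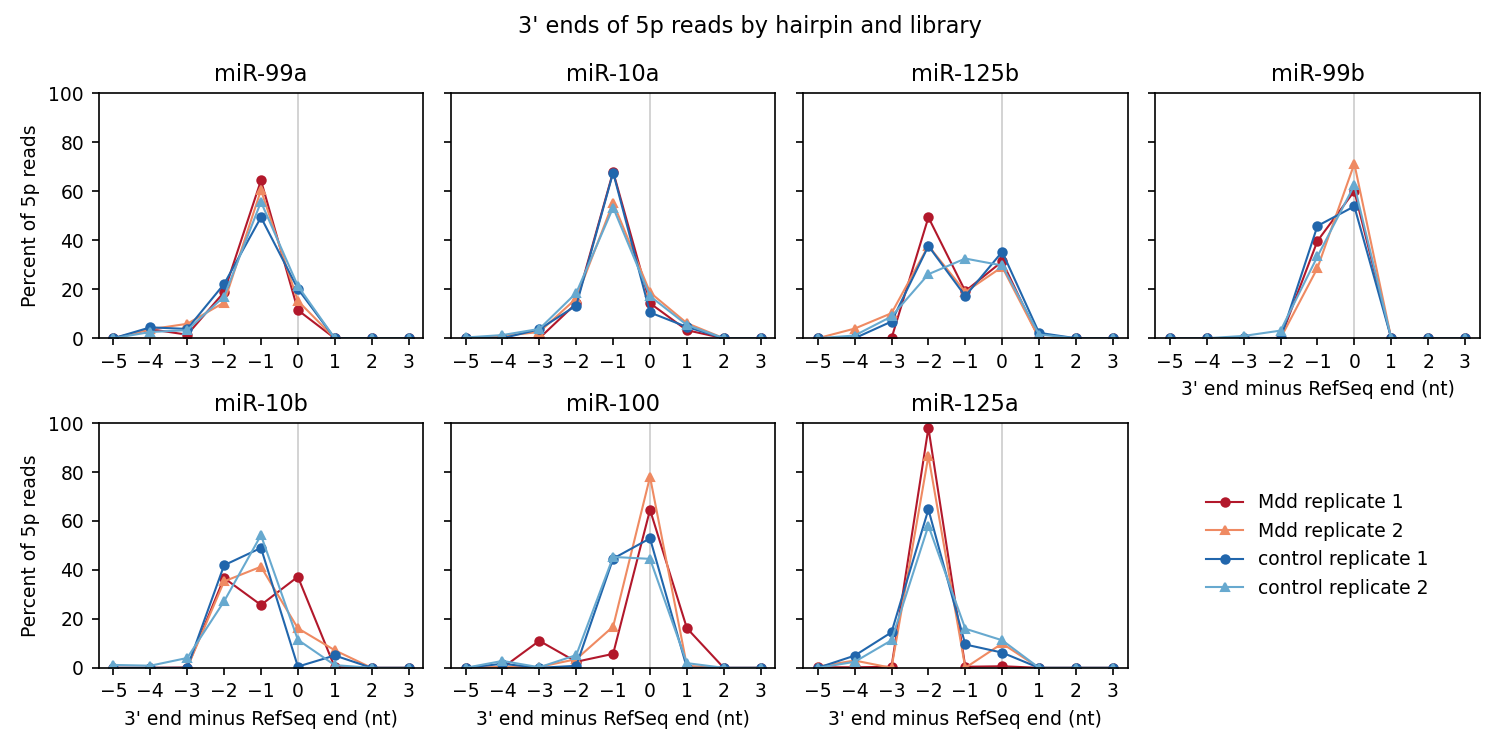
Percent of each member's untailed 5p reads by where they ended, as the distance in nt from the RefSeq 3′ end (0), 1 line per library. The end 2 bases short holds 98.0% and 86.6% of miR-125a reads in Mdd and 64.7% and 58.1% in control, and miR-10a peaks 1 base short in all 4 libraries.

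A related measure is the share of a member's untailed 5p reads held by the sequence with most reads over the 4 libraries together. It did not overlap between groups in 6 of 7 members, higher in Mdd in 5 (miR-99a, miR-99b, miR-100, miR-125a and miR-125b) and lower in 1 (miR-10b). Over 120 miRNA labels with enough reads, which averaged at least 100 reads and had reads in every library, 36.7% did not overlap, 25.0% higher and 11.7% lower in Mdd. Distinct family sequences numbered 46 and 48 in Mdd and 49 and 97 in control, so that Mdd replicate 2 and control replicate 1 were nearly the same. Distinct miRNA sequences of all labels numbered 992 and 1120 in Mdd and 1059 and 2064 in control, with overlap. The part of depth in these shares was not tested. The 29 sequences found in all 4 libraries held 92.2% of family reads. Of the 52 sequences found in 1 library, 42 were in control replicate 2, with 593 reads.

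Tested one by one, 42 of the family's 110 sequences passed the filter on low counts. Of all 754 miRNA sequences tested with edgeR, 0.0% passed an adjusted p of 0.05 and 67 had an unadjusted p under 0.05, 3 of them family sequences. DESeq2 called 14 of 681 (2.06%), 3 higher in Mdd (0.441%) and 11 lower (1.62%), none from the family. The RefSeq sequence of miR-125b, printed above, had 72 and 91 reads in Mdd and 207 and 637 in control, or 362 and 968 CPM in Mdd and 2879 and 2415 CPM in control (log2 fold change -1.96, SE 0.90; unadjusted p = 0.0474, adjusted p = 0.534, edgeR). Both Mdd libraries were lower. The other two had no reads in Mdd. The longer miR-125b sequence tCCCTGAGaccctaacttgtgat had 13 and 33 reads in control, and the shifted miR-10b sequence aCCCTGTAgaaccgaatttgt had 11 and 45. With the usual copies at 7 and 10 in the controls, these counts equal only a few such units.

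Of the 42 sequences, 19 did not overlap in CPM between groups, 16 of them lower in Mdd. Over all 754 sequences, 37.7% did not overlap and 23.2% were lower in Mdd. Log2 fold changes were positive for 13 and negative for 29 of the family sequences, with a median of -0.68 against -0.002 over all sequences. The sequences share members and libraries and are not independent.

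All reads with a member's annotation matched the genome by the files' own mark, so tailed forms were looked for among unmatched reads, a search set up after the data were seen. A read counted as tailed when it began with at least 18 bases of a member's hairpin or mature 5p sequence and then carried 1 to 3 further bases. This found 3025 reads in 91 sequences, of which 98.8% carried the annotation piRNA in the files. The added bases were only U in 54.5% of tailed reads and only A in 39.4%, and 91.3% had a single added base. A misread base at the 3′ end would be counted as added too, since the search cannot tell them apart. The sequences with most reads are shown with the added base in capitals.
miR-99a with U: aacccgtagatccgatcttgtgT
miR-99a with A: aacccgtagatccgatcttgtgA
miR-125b with U: tccctgagaccctaacttgtgT
The first had 75 and 68 reads in Mdd and 50 and 432 in control. The second had 103 and 0 reads in Mdd and 41 and 409 in control. The miR-125b form had 66 and 46 reads in Mdd and 40 and 185 in control.

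With tailed reads counted among the 5p reads, they made up 7.85% and 7.75% of the family's 5p reads in Mdd and 10.6% and 7.34% in control, with overlap. The tailed shares of 3 members did not overlap between groups, and the share over other miRNAs was not computed. For miR-99b the shares were 15.3% and 11.2% in Mdd and 5.75% and 6.66% in control, and for miR-125b 17.7% and 15.1% in Mdd and 11.6% and 12.3% in control. Tails of 1 base on miR-125b overlapped, at 9.42% and 11.8% in Mdd and 10.4% and 11.3% in control. In Mdd replicate 1, where the usual copies were 38, 56 of the tailed miR-125b reads were 1 sequence with 3 added U. That sequence was found in no other library. U tails of miR-99b alone were at 14.7% and 9.17% in Mdd and 3.57% and 3.33% in control. miR-99a was tailed less in Mdd without overlap, at 6.67% and 7.18% in Mdd and 12.8% and 8.34% in control. The tailed shares of miR-99b, miR-125b and miR-99a each have an exact permutation p of 0.333, the smallest the design allows. miR-100 was tailed in 14.5% and 16.7% in Mdd and 48.3% and 15.1% in control, with control replicate 1 alone high. Its U tails were at 1.30% and 0.980% in Mdd and 27.4% and 8.54% in control, without overlap. U tails of miR-125b were at 17.4% and 11.4% in Mdd and 6.03% and 7.95% in control, also without overlap but higher in Mdd. Those of miR-125a were at 19.2% and 2.83% in Mdd and 3.21% and 2.58% in control, with Mdd replicate 1 alone high. miR-10a was tailed little, at 2.04% and 0.921% in Mdd and 3.21% and 1.15% in control.

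**Figure D5:**
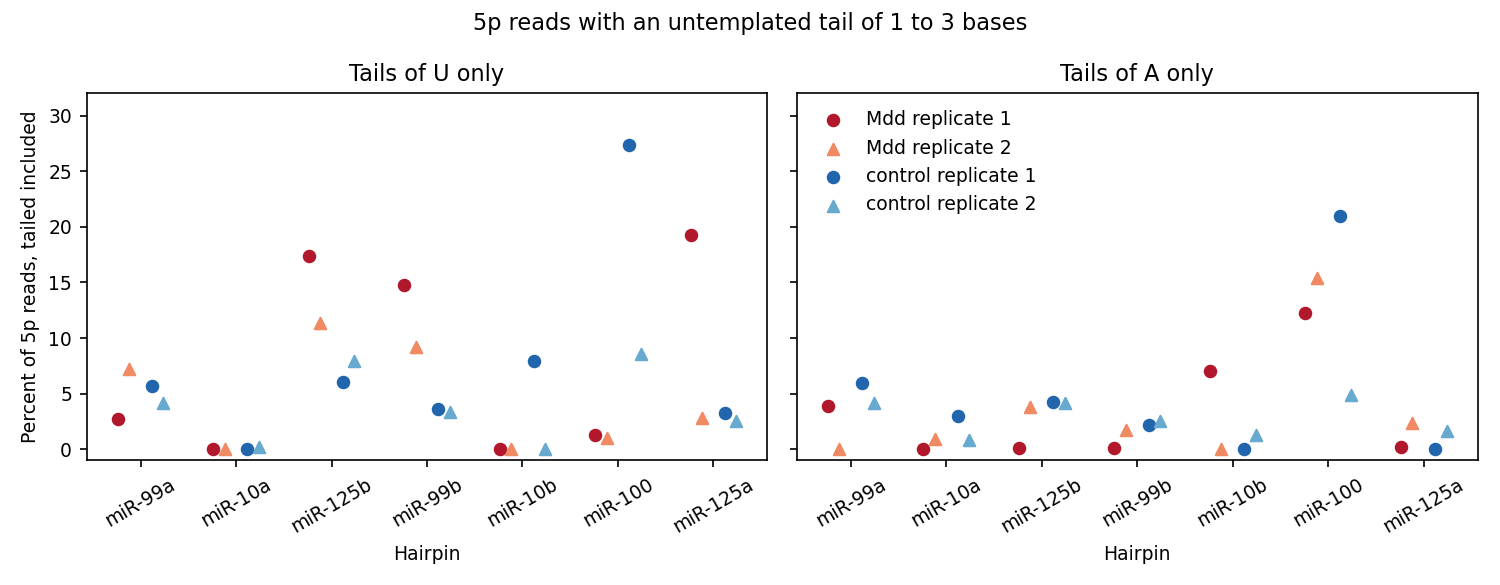
Reads with added bases of U only (left panel) and of A only (right panel) as a percent of each member's 5p reads with tailed reads included, 1 point per library and Mdd left of control. U tails of miR-99b and miR-125b lie higher in Mdd, and those of miR-100 reach 27.4% in control replicate 1.

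Ratios between members from neighbouring hairpins were compared within libraries. miR-100 reads were 0.912 and 0.669 times those of miR-125b in Mdd and 0.203 and 0.382 times in control. The Mdd ratios were higher than both control ratios (exact permutation p = 0.333 on the log2 ratio, the smallest the design allows). The miR-99a to miR-125b ratio, from the chromosome 16 cluster and the other miR-125b copy, was 4.41 and 2.71 in Mdd and 1.28 and 4.15 in control, with overlap. The miR-99b to miR-125a ratio was 1.67 and 3.03 in Mdd and 1.98 and 2.26 in control, and so overlapped. miR-99a reads were 0.547 and 0.490 times those of let-7c in Mdd and 0.357 and 2.59 times in control. Control replicate 2 was the only library with more miR-99a than let-7c.

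A list of related miRNAs held the hairpin neighbours let-7a, let-7c and let-7e, the Hox cluster miRNAs mir-196a, mir-196b and mir-615, and mir-351, which has the miR-125 seed. Its 7 miRNAs gave 8 labels, 7 of which were tested. None passed the edgeR test, 3 log2 fold changes were positive and 4 negative, and the median was -0.01. mir-615, from an intron of Hoxc5, had 769 and 1128 CPM in Mdd and 292 and 372 CPM in control (log2 fold change 1.52, SE 1.19; adjusted p = 0.952, edgeR). mir-351 had 5 reads in control replicate 2 and none elsewhere. Among 93 other labels of at least 1000 mean CPM, those whose levels over the 4 libraries were most like the summed family were mir-29a, let-7f and mir-139. Their root mean square differences from the family in centred log2 CPM were 0.12, 0.17 and 0.19.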

How the data were processed

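Per the file headers, the authors deposited 1 row per distinct sequence with a raw read count, its length, a genome mark and an annotation. These deposited counts entered the tests unnormalized. The submitters' processing notes name mm9 and DESeq2. For the aligner and annotation the note is: not given in the sources used here. Files were joined by sequence, and a sequence took the first annotation given in any file, since Mdd replicate 1 used fewer classes. Counts of sequences of 18 nt or longer were summed per hairpin. The usual number of copies is where the number of genome-matched sequences per copy number peaks beyond its first low point. Any peak at lower copy numbers was not used. The test was that of edgeR 4.0.16 (quasi-likelihood, two-sided, TMM, filterByExpr, Benjamini-Hochberg over all tested, threshold 0.05) in R 4.3.3, with DESeq2 1.42.0 as an alternative. The edgeR test was first run on simulated data with log2 fold changes of 3 in size and a dispersion of 0.1. That run does not show its power for smaller changes or a wider spread. Single values were tested by exact two-sided permutation (scipy 1.17.1). CPM uses the total of miRNA reads of 18 nt or longer, and 3 reads, the limit for a count of 0, equal 11.4 to 41.7 CPM. Arms and ends were placed on RefSeq sequences of GRCm38.p6, and 5p shares use reads so placed. The members, gene lists and tests were chosen with earlier results of these data known. All members were named, with the 2 sequences with most reads for each arm of 100 or more reads, and other sequences were chosen after their values were seen.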

Additional observations from a re-analysis of the deposited data

How the results depend on the processing

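No member passed the threshold under any alternative run, and no family sequence did. Over all hairpin labels, 0 calls became 7 with DESeq2, 6 with no filter, 6 with a mean CPM of at least 10, 5 when scaled by reads of all classes, 1 with reads of 15 nt or longer and 4 with counts divided by the usual copies, an alternative chosen after seeing the data. Leaving out 1 library gave 0 to 16. Over all sequences, 0 calls became 14 with DESeq2 and 6 with no filter, and 4 to 13 on leaving out 1 library. Same-numbered replicates did not deviate together (correlation -0.036), and with the replicate number as a block 4 labels, 6 sequences and no member were called. The block turned the log2 fold change of miR-10a to -0.013. Scaling by reads of all classes turned it to -0.80 and miR-100 to -0.995, with a median of -1.10 over all labels. Tailed reads turned miR-100 to -0.16. Leaving out 1 library gave log2 fold changes of -0.57 to 0.59 for miR-10a, -1.17 to 0.22 for miR-10b, -1.72 to 0.31 for miR-99a, -0.42 to 0.11 for miR-99b and -0.44 to 0.81 for miR-100. It gave differences in share of family reads, in percentage points, of -1.46 to 2.18 for miR-10b, -19.8 to 5.30 for miR-99a, -2.30 to 6.58 for miR-99b and -1.99 to 2.32 for miR-125a. It gave -1.67 to 7.32 for the RefSeq 3′ end and -2.83 to 0.46 for tailed reads. Counting each sequence once turned the share of miR-99b to -1.81, the mean length to -0.25 nt and the RefSeq 5′ start to 1.90. The cause was not tested. Joint member labels gave no alternative, since none was 18 nt or longer. Counts of the 3p arm, of tails and of many single sequences are small in units of the usual copies. This holds above all in Mdd replicate 1, where the usual copies were 38. The part of depth was not tested.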
